A study of Drosophila melanogaster with 2 samples.

Results

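Polycomb-like (Pcl) peaks on chromosome arm 3R of Drosophila melanogaster are described here outside the Hox complexes and a few other well-known loci. The members are the 3R peaks whose centre lay outside 7 windows. These were set at the Antennapedia complex, the bithorax complex, the NK homeobox cluster and the genes hb, hh, fkh and tll, and need not hold each locus in full. The windows hold 1.17 Mb and 210 of the 791 peaks of the arm. The remaining 581 peaks are 73.5% of the 3R peaks (95% exact binomial interval 70.2 to 76.5) and 23.6% of the 2457 peaks of the whole list (22.0 to 25.4). These intervals cover counting error only.

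The list comes from chromatin immunoprecipitation with sequencing (ChIP-seq) of whole iso1 (y; bw cn sp) embryos collected 0 to 8 h after egg laying, untreated, with an antibody against Pcl made for the study (KW4-Pcl-D2). The label of the ChIP sample combines 3 replicates, so there is 1 list for 1 group and no replicate error. The input chromatin is the control sample, and no values of its own were analysed here. Whole embryos of this age range mix many cell types and stages, so a peak that few cells carry strongly and one that many cells carry weakly cannot be told apart.

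Pcl is a PHD-finger and Tudor-domain protein that joins the Polycomb repressive complex PRC2. PRC2 methylates lysine 27 of histone H3, and Polycomb group proteins keep developmental regulator genes silent outside the cells that need them. In flies these proteins assemble at DNA elements called Polycomb response elements, which are often found in and beside genes for transcription factors.

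Positions are on build BDGP5 (Release 5), 1-based. The score of each peak is the value that the authors' peak caller deposited for it. Its scale is not stated, so scores rank and describe peaks within the list and are not occupancies. No Release 5 annotation was used here. A locus name below comes from general knowledge of the Release 5 map, as an approximate placement on a hand-written list; no distance to a gene or transcription start was computed, and no peak is assigned to a target gene. Of the names, 17 come from a first list of developmental regulator loci of 3R, drawn up with earlier results of these data known. The other 6 (grn, sim, slou, cnc, Dr and Ptx1) were added after the positions of all peaks had been seen, so for these the presence of peaks is no finding. All 23 loci were on 3R in a Release 6 gene table, and the order of all 22 neighbouring pairs there was that of the list. Dl, also planned for the first list, had no entry in the gene table and was left out.

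Most Pcl peaks of 3R outside the windows were low and narrow. The median score was 68.3 (95% exact interval from the ordered scores 66.6 to 71.1), the quartiles were 57.4 and 94.2, and the range was 50.02 to 700.68. Of the 581 peaks, 183 scored below 60, close to the lowest value of the list, 270 scored 60 to below 100, 98 scored 100 to below 200 and 30 scored at least 200. The median width was 807 bp (787 to 839), the quartiles were 713 and 1043 bp, and the extremes 465 and 3535 bp. All members together covered 550 kb.

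The highest scores of the list were absent from this set, and its median score lay somewhat below those of the other arms. Here and below, 2L, 2R, 3L and X are whole arms, with no loci left out, whereas the members lack the 7 windows. The sets are therefore unlike. The highest member ranked number 34 in the whole list. Of the members 5.16% scored at least 200 (exact interval 3.51 to 7.29), against 7.45% of all peaks of the list, 5.15% on 2L, 4.10% on 2R and 4.72% on 3L. On X 19 of 190 peaks did so. In the excluded windows of 3R the share was 25.2% (19.5 to 31.7) and the median score was 98.7. The median score was 68.3 in the members, 73.4 on 2L, 71.3 on 2R, 74.9 on 3L and 72.2 on X. Scores below 60 made up 31.5% of the members, 28.6% of the peaks on 2L, 25.3% on 2R, 26.2% on 3L and 23.7% on X. The median width was 807 bp in the members, 834 bp on 2L, 846 bp on 2R, 845 bp on 3L and 768 bp on X. These values stand side by side without a test, since peaks of 1 list are not replicates.

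**Figure D1:**
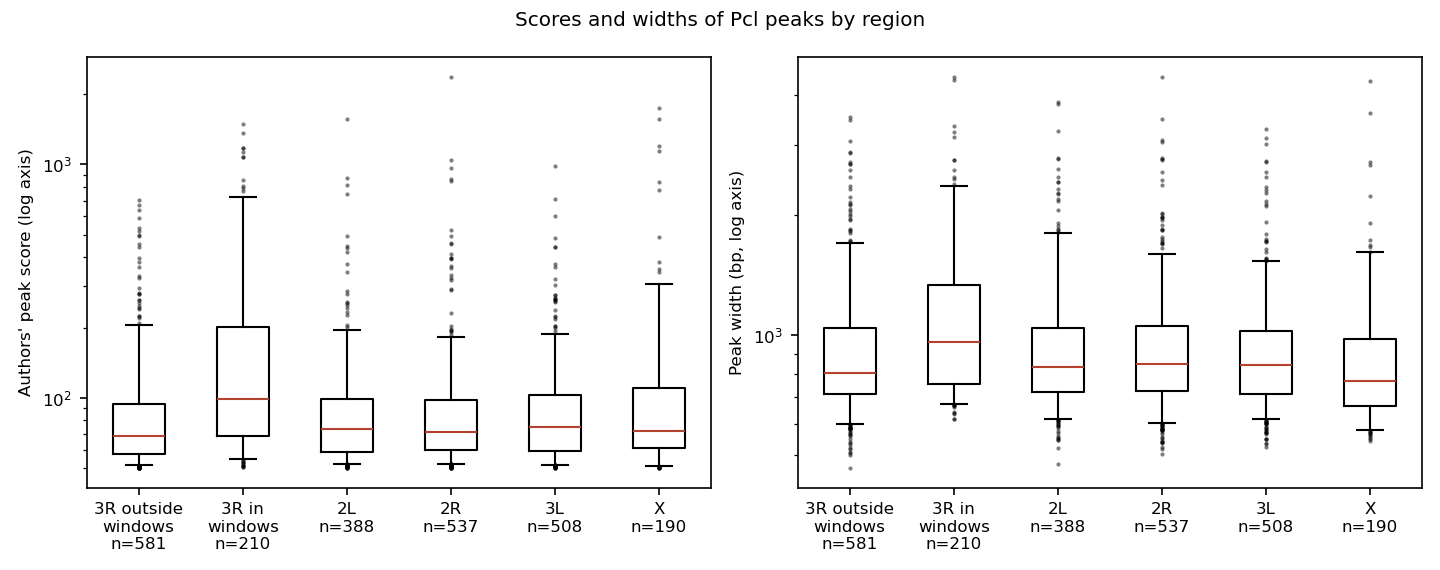
Authors' peak score (left) and peak width in bp (right), both on log axes, for Pcl peaks of 3R outside the excluded windows, 3R inside them, 2L, 2R, 3L and X. Boxes give the quartiles and the median, whiskers the 5th and 95th percentiles and points the peaks beyond them; the median score of 68.3 on 3R outside the windows compares with 98.7 inside them and 71.3 to 74.9 on the other arms.

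Wider members scored higher (Spearman's rho = 0.67 across the 581 peaks, a description, since width and score come from the same reads). The median width was 717 bp below a score of 60, 799.5 bp from 60 to below 100, 1168 bp from 100 to below 200 and 2029 bp from 200 up. Of the 20 highest members, 9 were also among the 10 widest. The widest, 3535 bp at 17381199 to 17384733, scored 456.81. The exception among the 10 widest was the peak at 7197726 to 7200616, which was 2891 bp wide and scored 183.08.

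**Figure D2:**
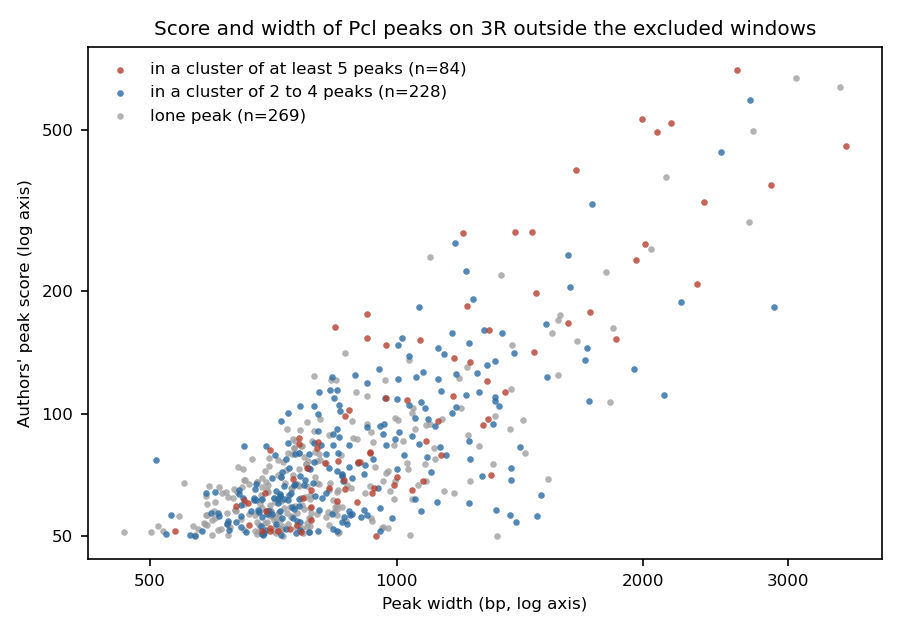
Authors' peak score against peak width in bp (both log axes) for the 581 members; each point is 1 peak, coloured by whether it lay in a cluster of at least 5 peaks (84), in a cluster of 2 to 4 (228) or alone (269). Peaks scoring at least 200 were 1098 to 3535 bp wide.

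Members were spread along the whole arm, at 21.9 peaks per Mb outside the windows, against 17.8 on 2L, 27.7 on 2R, 22.2 on 3L and 9.14 on X. The first started at base 784 of the arm and the last ended at 27758558. Among the 21 bins of 1 Mb that held no part of a window, the median was 21 peaks, the lowest was 8 (between 22 and 23 Mb) and the highest 37 (between 25 and 26 Mb). The bins from 25 to 27 Mb together held 11 of the 30 members scoring at least 200, with 5 in the first and 6 in the second, and the second also holds the tll window. No member of that level lay in 14 of the 28 bins. The longest stretch of 3R without any peak ran 600.2 kb from 4581459 to 5181683, on the far side of 2 members scoring 69.50 and 65.13 that lay within 50 kb of the hb window. The next were 393 kb from 22083640, 352 kb from 18188158, 350.4 kb from 19226665 and 349.8 kb from 6706670. Mappability was not examined for these stretches.

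Grouping peaks with gaps under 10 kb gave 376 groups, of which 269 were lone peaks, 63 held 2 peaks, 31 held 3 or 4, and 13 held 5 to 9. In all, 53.7% of the members (49.5 to 57.8) shared a cluster with another peak, against 58.9% of all peaks of the list. The share was 51.8% on 2L, 63.3% on 2R (59.1 to 67.4), 54.3% on 3L, 54.2% on X and 97.1% in the excluded windows. Clusters of at least 5 peaks made up 3.46% of the member clusters, against 3.51% of the clusters of the whole list, so the share of large clusters was near the background. No member cluster approached the 107 peaks of the bithorax complex. The median length of the 107 clusters of at least 2 peaks was 7.38 kb, and the longest ran 37.0 kb.

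**Figure D3:**
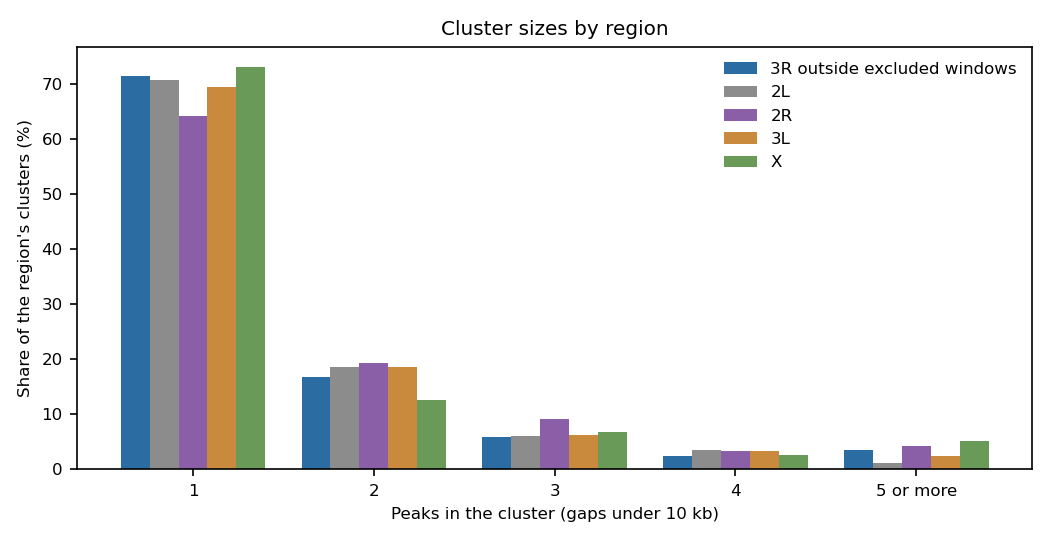
Share of clusters (percent) by the number of peaks in the cluster, for 3R outside the excluded windows (376 clusters), 2L (264), 2R (307), 3L (334) and X (119). On 3R outside the windows 3.46% of clusters held at least 5 peaks, against 1.14% on 2L, 4.23% on 2R, 2.40% on 3L and 5.04% on X.

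Large clusters carried more of the high peaks than their number of peaks alone gives. The 13 clusters of at least 5 peaks held 84 members (14.5%) and 14 of the 30 members scoring at least 200. The share at that level was 16.7% in these clusters, 5.88% in clusters of 3 or 4, 0.794% in clusters of 2 and 3.35% among lone peaks. Clusters beside excluded windows gave part of the 16.7%, with 2 such peaks at slou, 1 at cnc, 2 at zfh1 and 3 at Ptx1. The median score was 83.4 in clusters of at least 5, 74.2 in clusters of 3 or 4, 70.5 in clusters of 2 and 65.3 for lone peaks. These shares were not tested. Whether the peak caller split wider regions was not tested either; in the large clusters 20 of 71 gaps were under 1 kb, and over all members 56 of 580 were. The shortest gaps were 13 bp, before the peaks starting at 3108695 and 7125274.

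The 13 large clusters ran from 11.9 to 37.0 kb, and peaks covered between 13.8% and 52.1% of their length. Their highest peak scored between 81.37 and 700.68, and 9 of them held a peak of at least 200. A cluster with more peaks has more chances to hold such a peak. In 7 of the 13 the highest peak exceeded the next by a score of at least 100, whereas in 3 the difference was under 30. Over all 107 member clusters of at least 2 peaks, 12 (11.2%) had a difference of at least 100, and the median difference was 25.15. Both forms, a single tall peak among low ones and several peaks of like height, thus occurred.

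**Figure D4:**
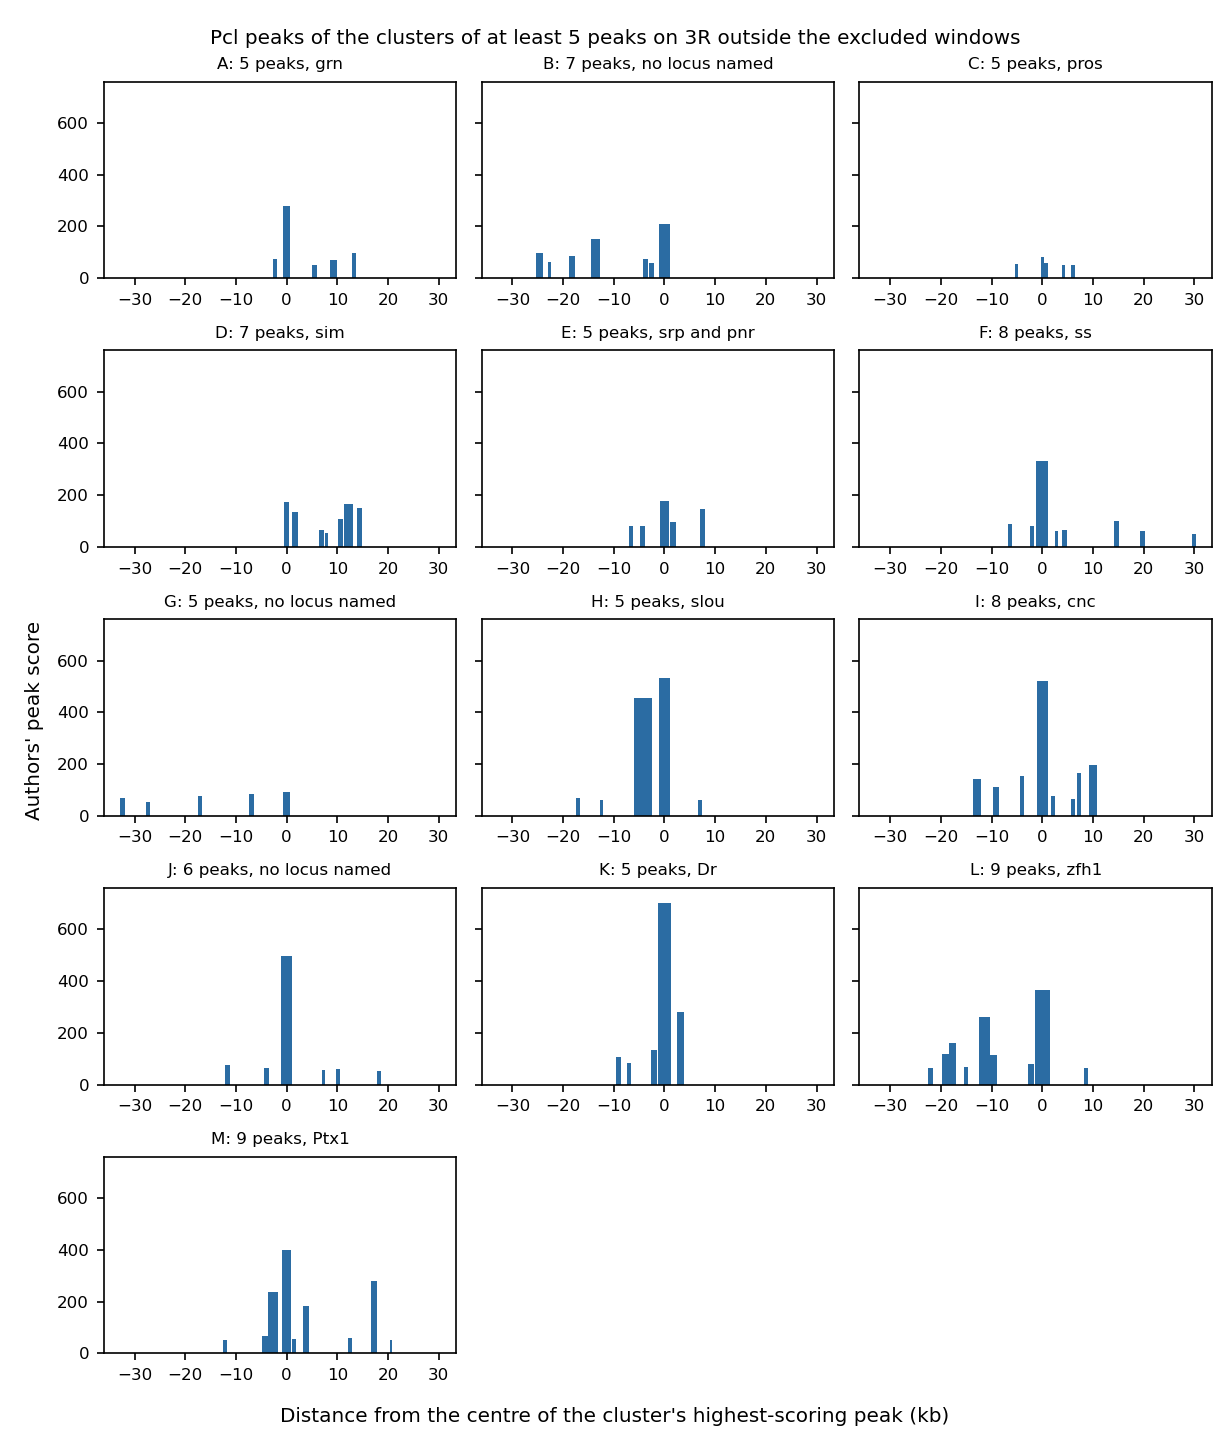
Peaks of the 13 clusters of at least 5 peaks, 1 panel per cluster in map order, with distance in kb from the centre of the cluster's highest peak on the horizontal axis and the authors' peak score on the vertical axis from 0; bars have the width of the peaks, and titles give the number of peaks and the approximate locus. A single tall peak of 494.99 among peaks of at most 76.14 is seen in panel J, and 5 of 7 peaks above 100 in panel D.

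The highest-scoring member belonged to a compact cluster from 25508963 to 25522431, placed near Dr, which encodes an Msx-type homeodomain factor of dorsal neural and muscle patterning. Its 5 peaks scored 108.13, 84.33, 133.87, 700.68 and 280.72 in map order. The highest, at 25517269 to 25519871, was 2603 bp wide, began 180 bp after the peak before it and ended 1167 bp before the peak after it. Peaks covered 52.1% of the 13.5 kb, the densest coverage among the 13. A lone peak scoring 242.96 followed 11.3 kb further on, at 25533710 to 25534807. This stretch therefore held 3 of the 30 members of at least 200.

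The cluster to its left, from 25370663 to 25401365, had 1 high peak only. Its 6 peaks scored 76.14, 64.90, 494.99, 57.69, 58.93 and 51.16. The high peak lay at 25381745 to 25383825, and peaks covered 20.4% of the 30.7 kb. No locus name was given to it.

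A pair of 9-peak clusters, the most populated of the members, flanked the tll window on both sides. The one before it, from 26588494 to 26620103, was placed at zfh1, which encodes a zinc-finger and homeodomain repressor of mesoderm and neurons. Its scores were 65.40, 119.99, 160.88, 68.48, 261.21, 112.96, 78.93, 364.97 and 65.75, so that 5 of 9 peaks reached 100. With 12.5 kb in peaks it had the greatest peak length of any member cluster. The cluster after the window, from 26725652 to 26759092, was placed near the homeobox gene Ptx1. It scored 51.27, 68.27, 239.09, 398.93, 54.76, 183.97, 59.14, 278.61 and 51.50. It held 3 peaks of at least 200, and the one of 278.61, at 26754807 to 26756012, was separated from the other two by 3 lower peaks. Inside the tll window itself the highest of 7 peaks scored 170.08.

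Next to the NK homeobox window lay the cluster from 17369704 to 17394601, placed at slou, an NK-type homeobox gene of muscle founder cells. Since slou is itself of the NK type, the window edge may cut the NK homeobox group. The peaks at slou are members by the rule only and are not taken as lying outside that group. The 5 peaks of this cluster scored 68.90, 61.17, 456.81, 532.58 and 60.91. The high peaks, at 17381199 to 17384733 and 17386216 to 17388206, were 1482 bp apart and stood alone above low neighbours. The centre of its first peak was 77 bp beyond the edge of the window, while the last excluded peak of the NK cluster ended at 17339541, 30.2 kb before it.

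The cluster from 19013580 to 19037926, placed near cnc, which encodes a bZIP factor of head development, lay 19.4 kb beyond the last peak of the hh window. Its 8 peaks scored 141.92, 110.76, 153.71, 519.61, 75.58, 64.68, 163.81 and 197.78. With 6 of 8 peaks of at least 100 and a median of 148 it had the highest median score of the 13 clusters. Its tallest peak, at 19026104 to 19028265, exceeded the highest peak of the hh window, which scored 351.55.

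The large clusters placed at the bHLH-PAS genes ss and sim differed in form. The cluster from 12222911 to 12259942, placed at ss, the regulator of antennal identity, was the longest of all at 37.0 kb. Its 8 peaks scored 87.04, 80.25, 331.53, 62.09, 66.58, 102.11, 63.76 and 51.96, so that the peak at 12228443 to 12230816 stood alone. It lay 227 kb before the first peak of the bithorax complex. A separate cluster of 3 peaks before it, from 12201831 to 12212195, was also placed at ss and reached 124.67. The cluster from 8887722 to 8903131, placed at sim, the master regulator of the ventral midline, had no peak of at least 200. Its 7 peaks scored 175.69, 136.82, 65.47, 53.22, 108.96, 167.48 and 151.41, at either end high and in the middle low, over 15.4 kb. Its highest and second scores differed by 8.21, the smallest difference among the 13 clusters.

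At the GATA-factor loci a large cluster had lone peaks beside it. This arrangement was not particular to them, since Dr and sim also had it (at sim a lone peak of 94.15 at 8872179 to 8873098). At srp and pnr, genes of blood and fat body and of dorsal ectoderm and heart, the cluster from 11835295 to 11850237 scored 82.50, 79.98, 178.03, 96.10 and 147.29. A lone peak at 11863443 to 11866164, 13.2 kb further on, scored 496.85 and was 2722 bp wide. Another lone peak before the cluster, at 11820702 to 11821735, scored 73.24. At grn, another GATA-factor gene, the cluster from 4004807 to 4021196 scored 73.64, 279.40, 50.04, 70.81 and 98.50, with its tall peak at 4006783 to 4008247. A lone peak 11.0 kb before it, at 3992430 to 3993812, scored 147.31.

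The remaining 3 large clusters had no peak above 208.28. The 7 peaks from 4134635 to 4161062 scored 97.23, 63.88, 85.41, 152.32, 75.96, 60.61 and 208.28, with no locus name. The 5 peaks from 16120274 to 16153846, also unnamed, scored 69.93, 52.23, 76.48, 85.21 and 93.80 and covered the lowest share of their length, 13.8%. At pros, the homeodomain regulator of neural precursor daughters, the 5 peaks from 7119416 to 7131305 scored 53.30, 81.37, 60.37, 51.38 and 51.36. All 5 were 659 to 700 bp wide. A cluster of 4 peaks before them, from 7086702 to 7106448, reached 205.06 at 7104823 to 7106448, so the higher peak of this locus lay outside its larger cluster.

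Several of the highest members stood alone or in small clusters. Of the 20 highest, 11 lay in the large clusters, 4 in clusters of 2 to 4 and 5 alone. At ems, a head gap homeobox gene beside its relative E5, the lone peak at 9726805 to 9729879 scored 669.92 and was the second highest member, 25.4 kb after a 4-peak cluster that scored 125.67, 59.36, 223.92 and 262.75. The lone peak at 14061378 to 14064850 was the third highest; it scored 638.46, was 3473 bp wide and has no locus name. At opa, a pair-rule zinc-finger gene of the Zic family, the cluster from 668328 to 680279 scored 51.49, 123.11 and 591.70. At hkb, a terminal gap gene, 2 peaks from 170984 to 176635 scored 441.80 and 126.52.

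Further high peaks without a locus name were the lone ones at 909862 to 911992 (score 381.52), 15757800 to 15760488 (296.59), 25314173 to 25316219 (253.78), 27403019 to 27404820 (223.30) and 7183287 to 7184627 (220.07). The cluster from 13382666 to 13394240 held 3 peaks that scored 187.79, 183.03 and 327.56, the first pair only 34 bp apart. The peak at 26104409 to 26106026, in another cluster of 3, scored 246.28. Among the 50 highest members, which scored at least 153.71, 13 were lone peaks. The lowest 4 of these lay at 23356889 to 23358470 (174.92), 20963727 to 20965298 (169.64), 4103138 to 4104976 (162.57) and 24923057 to 24924605 (157.89). Of the 9 clusters of 4 peaks, the highest peak scored between 67.10 and 262.75.

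Of the 17 loci of the first list, 16 held members, and 7 of them had a peak scoring at least 200. Dl, planned but left out, is not among the 17. Members occurred at 21.9 per Mb outside the excluded windows. How many stretches of like size elsewhere on the arm hold a member was not computed, so these counts are not read as a trait of the loci. The 7 loci with a peak of at least 200 were hkb, opa, pros, ems and E5, srp and pnr, ss and zfh1. The approximate windows of the list covered 4.58% of the length of the arm between the first and the last member and held 68 members (11.7%). That length includes the 1.17 Mb of excluded windows, where no member could lie. The median score of these 68 was 86.9, against 67.1 for the other 513 members, and 10 of them scored at least 200, against 20 of the 513. No test was made, since the list was drawn up with results of these data known.

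At the other loci of the list no member reached 200. At dsx, the sex-determination factor, 4 peaks reached 191.29. At svp, a nuclear receptor gene, 3 peaks reached 144.97, and at tara 3 reached 128.54. At fru, a long gene of courtship behaviour, 3 separate peaks reached 113.07, and at pnt, an ETS factor gene, 2 reached 110.79. The E(spl) complex, a group of Notch-responsive bHLH repressor genes, held 2 peaks of at most 96.47, ttk 3 of at most 94.17 and sr 2 of at most 91.76. At hth, whose product is a cofactor of Hox proteins, 1 peak scored 63.62 and a second peak of the same cluster, at 6304802 to 6306081 just outside the approximate window, scored 160.47. No member lay in the window of Ser, which encodes a Notch ligand. A missing peak says only that none passed the authors' cut-off there.

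Peaks near the excluded windows contributed to the high scores. Within 50 kb of a window edge lay 36 members (6.20%), with a median score of 70.1, against 68.1 for the 545 farther away. They included 7 of the 30 members of at least 200 and 6 of the 20 highest, at slou, cnc, zfh1 and Ptx1. Beside the Antennapedia complex, the bithorax complex, hb and fkh, by contrast, the 7 members within 50 kb scored at most 72.33. The windows are a choice of the member rule, and whether the peaks beside them belong to the excluded loci was not tested.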

How the data were processed

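One peak list was analysed, from Pcl ChIP-seq of whole 0 to 8 h embryos; the label combines 3 replicates by an unstated method. Per the submitters' processing notes, Bowtie and build BDGP5 were used. Per the file headers, peaks were called with MACS. Tool versions and settings were not given in the sources used here. For every peak the deposited score is the peak caller's own number, with no stated scale. The deposited positions are starts and ends in bases, and starts were made 1-based. The list gives no read counts, so the depth behind each peak is unknown.

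Members were taken by position, with 7 windows left out by peak centre, and grouped at gaps under 10 kb with Python 3.11.15 (pandas 2.3.3, numpy 2.4.6, scipy 1.17.1). The grouping was tested on simulated data. Intervals are 95% exact binomial and treat peaks as independent, so they are likely too narrow. Arms are compared as a description without tests. Described in full were clusters of at least 5 peaks, the 20 highest and 10 widest members and the lone peaks among the 50 highest, with a summary of members beside the windows. Members, loci and lists were chosen with earlier results of these data known. Values were recomputed with a score minimum of 100, cluster gaps of 1, 5 and 50 kb, and other handling of the windows. Values other than those of clusters were also recomputed with gaps under 1 kb joined. No sequences are shown, since no Release 5 genome was used here.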

Additional observations from a re-analysis of the deposited data

How the results depend on the processing

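Of 44 recomputed values, 26 stayed within 1.5 times for counts or within the exact interval for medians and percentages. Dropping peaks that touch a window, or widening the windows by 50 kb, moved none past these limits. The wider windows still removed the clusters at slou, cnc and Ptx1, leaving 10 of at least 5 peaks against 13. They also left 23 of the 30 members scoring at least 200. With a score minimum of 100 the members numbered 128 in 91 clusters, 3 of them of at least 5 peaks; 46.1% shared a cluster, 23.4% scored at least 200, and the medians were 1228.5 bp, a score of 139 and a neighbour distance of 43.7 kb (24.2 kb for all members). These shifts follow from how that list is made. The clusters depend on the gap. With 1 kb no cluster had 5 peaks (0), 17.9% of members shared one and the median length was 2.45 kb; with 5 kb the values were 41.7% and 4.50 kb. With 50 kb there were 168 clusters, 46 of at least 5 peaks, 90.5% sharing and a median length of 47.4 kb. Joining gaps under 1 kb moved the neighbour distance to 28.9 kb. Clusters were not recounted with these gaps joined, and fewer would then hold 5 peaks. The cluster at sim, for example, had 7 peaks with 4 gaps under 1 kb. No paired analysis was possible because replicates are merged in the single list; for the same reason no replicate could be left out. Sites under the cut-off of the list remain unseen.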

Other observations

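With a gap of 50 kb, 1 of the 8 most populated groups of members held no peak of at least 200. This group, from 1463047 to 1691420, held 14 peaks over 228 kb, as many as any other such group; its highest score was 147.9 and its median 74.9. The other group of 14 ran 265 kb from 17369704, at slou, with a highest score of 532.58 and a median of 68.1. A group of 12 peaks from 9571309 to 9749813, at ems and E5, held 3 peaks of at least 200. These groups depend on the wider gap and are given as values only.

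The 4-peak cluster from 20906863 to 20921710 had a median score of 129, above that of 10 of the 13 clusters of at least 5 peaks, although its highest score was 158.33. It has no locus name, and it was chosen after its values were seen.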
